A study of Rattus norvegicus with 12 samples.

Results

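Complement components and regulators were read in the rat lung from 9 genes, C1qa, C1qb, C1qc, C2, C3, Cfb, C6, C7 and C9. A probe was taken for a gene where its RefSeq accession mapped to the symbol, and 8 of the 9 genes had one, with 9 probes among the 30367 transcript probes of the array and 8 of its 14919 named genes. C2 had 2 probes. No accession of C7 was found on the array, so C7 has no value here. All 9 probes were well above background on all 12 arrays, and all 9 passed the filter on dim probes.

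The lung samples came from a rat model of chronic obstructive pulmonary disease (COPD) made with cigarette smoke (CS) and lipopolysaccharide (LPS), and the study asked how hydrogen sulfide alters gene expression in it. Total RNA of the left upper lobe was hybridized to single-colour Agilent rat arrays, with 3 samples in each of 4 groups. All groups were male Sprague-Dawley rats aged 8 to 12 weeks. The labels number the samples of a group as replicates without naming the animals, so the p-values below measure the spread between these samples.

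The Control group breathed air and received saline on the schedule of the other groups. The CS + LPS group was exposed to smoke up to day 30, with LPS put into the trachea on days 5 and 19. The CS + LPS + NaHS group also received sodium hydrosulfide, a donor of hydrogen sulfide, by intraperitoneal injection before each exposure. The CS + LPS + PPG group received DL-propargylglycine in the same way, an inhibitor of cystathionine gamma-lyase (CTH), an enzyme that makes hydrogen sulfide. No group received NaHS or PPG without smoke and LPS, and lungs were taken 24 h after the last smoke.

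Complement is a cascade of plasma proteins that marks microbes and damaged cells. C1q, built from the chains of C1qa, C1qb and C1qc, starts the classical pathway, C2 supplies the protease of its C3 convertase, Cfb supplies that of the alternative pathway, and C3 is the protein on which both converge. C6, C7 and C9 are terminal components that, with C5b and C8, form the membrane attack complex, a pore in the target membrane. The liver makes most plasma complement, macrophages make C1q, and lung epithelium makes C3 and Cfb.

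Members of like function lie near each other in the rat genome. In the gene table of assembly GRCr8, C1qb, C1qc and C1qa follow each other on chromosome 5, C2 and Cfb are neighbours on chromosome 20, and on chromosome 2 only Mroh2b lies between C6 and C7, with C9 on the same chromosome and C3 on chromosome 9. In the lists deposited by the authors, which name no genome build, the C6 probe lies at chr2:53764375-53764434 and the C9 probe at chr2:55784980-55789922. The exon or intron of each probe was not analysed here.

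The promoter table held 4 members, and all 4 are shown. C1qa and C1qb, of 1 gene cluster, ran together over the samples. In the CS + LPS group C6 had the largest and C3 the smallest difference from Control. Each sequence is the 250 bases before the transcription start, 5′ to 3′ on the strand of the gene, from the RefSeq promoter table of GRCr8. They are C1qa at chr5:154419934-154420183 (minus strand), C1qb at chr5:154407828-154408077 (minus strand), C3 at chr9:2201340-2201589 (minus strand) and C6 at chr2:55573383-55573632 (plus strand). Promoters of C1qc, C2, Cfb, C7 and C9 were not analysed here. Capitals mark matches to 6 motifs searched on both strands, GGG and CC with 5 bases of any kind between them (kappa B), TTCNNNGAA (STAT), GAAA and GAAA with 2 bases between them (IRF), TTGCNNAA (C/EBP), GAGGAA (PU.1) and TATAAA, and matches that overlap form 1 run.
C1qa: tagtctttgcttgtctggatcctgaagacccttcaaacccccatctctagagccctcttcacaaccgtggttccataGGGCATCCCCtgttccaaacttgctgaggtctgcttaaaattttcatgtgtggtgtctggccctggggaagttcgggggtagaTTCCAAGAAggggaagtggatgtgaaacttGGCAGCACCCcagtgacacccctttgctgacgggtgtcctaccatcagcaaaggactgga
C1qb: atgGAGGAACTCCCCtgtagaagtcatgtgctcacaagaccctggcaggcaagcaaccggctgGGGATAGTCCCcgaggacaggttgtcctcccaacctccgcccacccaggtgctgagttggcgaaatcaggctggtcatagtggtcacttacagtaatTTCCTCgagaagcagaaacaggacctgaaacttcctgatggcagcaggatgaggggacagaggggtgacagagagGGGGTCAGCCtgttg
C3: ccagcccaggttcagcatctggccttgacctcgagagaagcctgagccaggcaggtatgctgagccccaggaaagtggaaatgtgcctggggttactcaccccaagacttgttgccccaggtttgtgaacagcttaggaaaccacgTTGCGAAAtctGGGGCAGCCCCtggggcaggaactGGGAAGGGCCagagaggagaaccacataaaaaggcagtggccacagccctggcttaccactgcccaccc
C6: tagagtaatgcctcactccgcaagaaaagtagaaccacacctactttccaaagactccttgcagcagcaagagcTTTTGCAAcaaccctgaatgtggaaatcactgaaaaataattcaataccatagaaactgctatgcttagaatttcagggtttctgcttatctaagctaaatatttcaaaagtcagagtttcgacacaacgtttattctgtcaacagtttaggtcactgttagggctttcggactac

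The C1qa window held 2 kappa B matches and 1 STAT match. The C1qb window held 4 kappa B matches, 2 of them overlapping each other and 1 overlapping the first of its 2 PU.1 matches. The C3 window held 3 kappa B matches, 2 of them shifted by 1 base, and 1 C/EBP match, and the C6 window held 1 C/EBP match. Of 33469 promoter windows of the same length, 42.3% held the kappa B letters, 7.7% STAT, 3.4% IRF, 9.2% C/EBP, 23.3% PU.1 and 12.9% TATAAA, so these matches describe the sequences and do not mark sites in use. C and G made up 39.2% of the C6 window and 52.4% to 58.8% of the other 3.

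Values below are normalized log2 signals of 1 probe, so levels of different genes are not compared. The 75th percentile of the processed signal ran from 1229 to 3261 among arrays, lowest on Control 3, and 66.0% to 75.5% of probes were well above background. The 3 CS + LPS arrays and Control 3 were on 1 slide and the other 8 on the other. Control 3 correlated with the other arrays at a Pearson r of 0.936 to 0.957, and Control 1 with Control 2 at 0.990. The 6 detected markers of alveolar type 2 cells averaged 16.67 to 17.15 on every array, but on Control 3 they went opposite ways. Sftpc read 19.39 there against 18.63 and 18.51 in the other Control samples, and Sftpa1 16.03 against 17.35 and 17.12. Sftpb and Sftpd were also higher on Control 3 than in the other Control samples, and Lamp3 and Napsa lower. A probe counted as differentially expressed (DE) where its limma p before adjustment was under 0.05 and its groups differed 2-fold or more, and adjusted p values are Benjamini-Hochberg over 21239 probes. Between CS + LPS and Control, 351 probes were DE higher and 618 lower, and with quantile normalization 568 of 922 were higher.

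C6 was the member DE higher in CS + LPS than in Control, by 5.24-fold with limma's adjusted p of 0.0658. C9 was the member DE higher with PPG than in Control, by 2.09-fold with limma's adjusted p of 0.0958. The C9 values overlapped Control, and with normexp background correction the log2 difference was 0.41 and not DE. Without a block for slide, none of C1qa, C1qb, C1qc, C3 and Cfb was DE in any of the 6 comparisons. Of all probes, 0.523% to 4.56% were DE in these comparisons. With slide as a block, C1qc in CS + LPS was 1.66 on the log2 scale and DE. Control 3 is the only Control sample on the CS + LPS slide. C1qa with PPG did not overlap Control and was the only member below an adjusted p of 0.05 there (0.037), at 1.74-fold. Leaving out single arrays raised that adjusted p to as much as 0.122. In the fit without that block, C1q transcripts lay higher in each exposed group by 0.23 to 0.92 on the log2 scale, under the 2-fold limit. C3 and Cfb differed from Control by -0.28 to 0.07 on the log2 scale in the exposed groups, with no DE call.

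**Figure D1:**
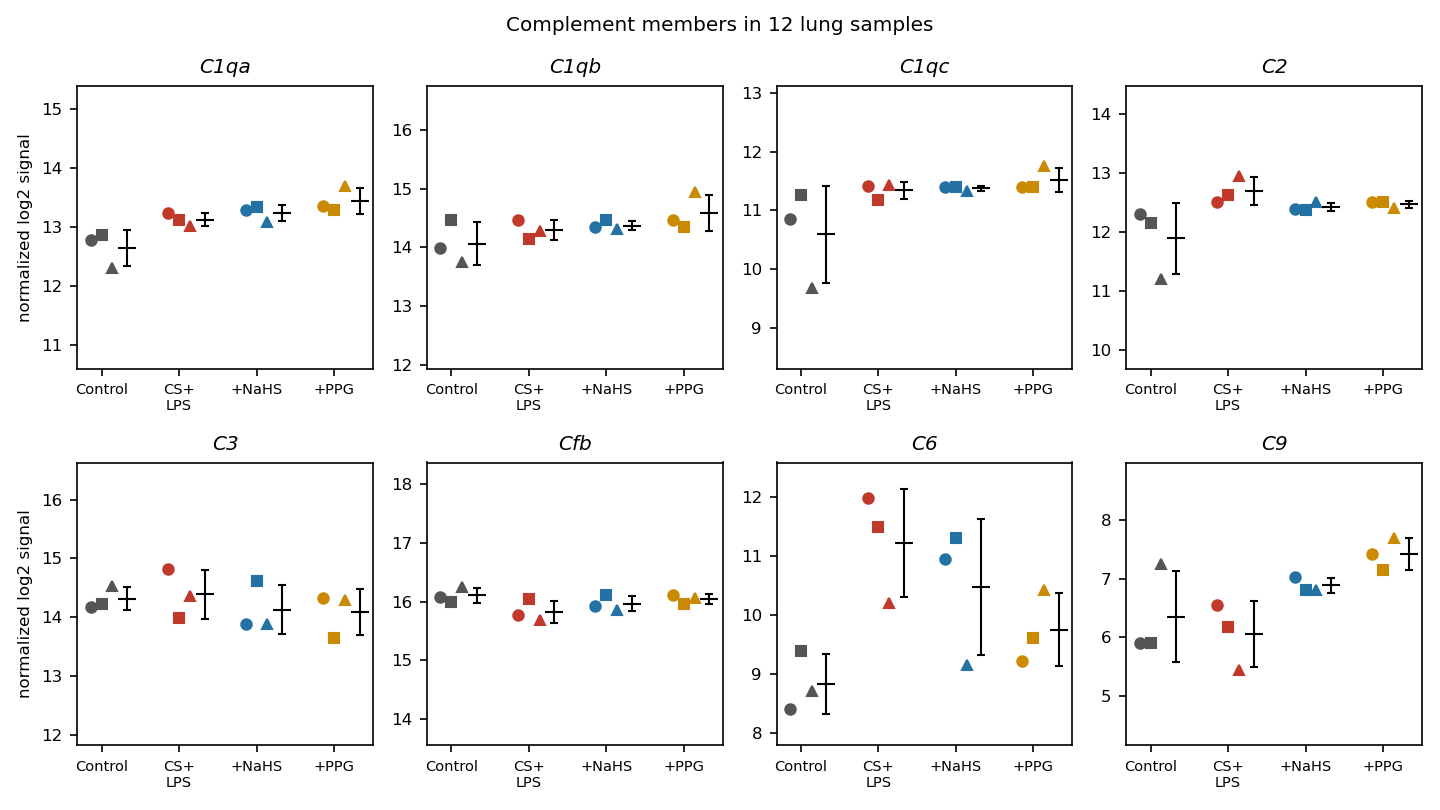
Normalized log2 signal of the 8 measured members in each lung sample, by group; circles, squares and triangles are replicates 1, 2 and 3, the bars are the mean ± SD (n = 3), and each panel spans the same log2 range. C6 sits between 10.20 and 11.98 in CS + LPS, above all Control samples, while Cfb stays between 15.68 and 16.24 in all 12.

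Of the initiating components, C1qa, the A chain of C1q, read 12.78, 12.86 and 12.30 in Control, 13.23, 13.12 and 13.01 in CS + LPS, 13.29, 13.35 and 13.09 with NaHS and 13.36, 13.28 and 13.69 with PPG. All 9 exposed samples lay above all 3 Control samples. The log2 fold change against Control was 0.48 (SE 0.17) in CS + LPS, 0.60 with NaHS and 0.80 with PPG, and limma's adjusted p was 0.134, 0.165 and 0.037. C1qa with PPG was thus the 1 member of 8 below an adjusted p of 0.05 in that comparison, where 4.64% of all probes were, but its fold change of 1.74 was under 2. Leaving out each of the 12 arrays in turn gave adjusted p values of 0.0313 to 0.122, highest without PPG 3, and 9 of the 12 were at or above 0.05 after rounding. The adjusted p was 0.0795 with no filter on dim probes, 0.182 with only PPG and Control in the fit, and 0.232 in the methods' t-test. Of 8 members, 0 passed an adjusted p of 0.05 in the other 5 comparisons, beside 2.02% of probes in CS + LPS and 0.0989% with NaHS against Control, 0.593% and 0.523% with NaHS and PPG against CS + LPS, and 0.00% between NaHS and PPG, and the methods' t-test gave 0 adjusted calls in all 6.

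C1qc, the C chain, was the C1q gene with the largest distance from Control and the widest spread within it. It read 10.85, 11.25 and 9.68 in Control, 11.42, 11.18 and 11.43 in CS + LPS, 11.40, 11.40 and 11.33 with NaHS, and 11.40, 11.39 and 11.75 with PPG. The NaHS and PPG samples lay above Control, and CS + LPS overlapped it by its replicate 2. Its log2 fold changes of 0.75, 0.78 and 0.92 (SE 0.32) were not DE, with limma's adjusted p of 0.176, 0.258 and 0.0962. Without Control 3 they were 0.29, 0.32 and 0.46, and without Control 2 they were 1.08, 1.11 and 1.25, past the DE limits. Without Control 1 the PPG value was 1.05 and also DE.

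C1qb, the B chain, gave the smallest difference of the 3 chains. It read 13.99, 14.46 and 13.75 in Control, 14.47, 14.13 and 14.27 in CS + LPS, 14.35, 14.46 and 14.30 with NaHS and 14.47, 14.35 and 14.94 with PPG, and every exposed group overlapped Control. The log2 fold changes of 0.23, 0.31 and 0.52 (SE 0.21) had limma's adjusted p of 0.481, 0.447 and 0.128. Over the 12 arrays the 3 C1q genes correlated with each other at a Pearson r of 0.85 to 0.90, and at 0.79 to 0.89 without Control 3.

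C2, the protease subunit of the classical convertase, was higher in exposed lungs by less than 2-fold. Its brighter probe read 12.31, 12.16 and 11.20 in Control, 12.50, 12.62 and 12.96 in CS + LPS, 12.38, 12.37 and 12.50 with NaHS and 12.50, 12.50 and 12.40 with PPG. For this probe no exposed sample fell among Control, though Control 1 lay close to the lowest of them. On the other C2 probe, NaHS 1 (12.16) and NaHS 2 (12.17) read below Control 1 (12.20). The log2 fold changes were 0.80, 0.53 and 0.58 (SE 0.25) with limma's adjusted p of 0.1, 0.305 and 0.153, and the other C2 probe gave 0.67, 0.43 and 0.56. Without Control 1 the CS + LPS difference was 1.01 and DE, and without Control 3 it was 0.46.

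Slide moved with these values. With slide as a block, the CS + LPS difference from Control was 1.66 for C1qc and 1.49 for C2, both DE, 0.82 for C1qa and 0.55 for C1qb, and the same values came from slide 2 alone, where Control 3 is the only Control sample. In that fit 4831 of 21239 probes were DE, against 969 without the block. Within slide 1, with Control 1 and 2, the NaHS and PPG differences were 0.42 and 0.63 for C1qa, 0.32 and 0.46 for C1qc and 0.19 and 0.23 for C2, none DE.

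Macrophage markers were read beside C1q. Of 12 detected macrophage markers, 4 were DE higher and 1 lower in CS + LPS, 2 higher and 0 lower with NaHS, and 4 higher and 0 lower with PPG. Of all probes, 1.65% were DE higher and 2.91% lower in CS + LPS, 1.30% and 1.37% with NaHS, and 2.32% and 2.06% with PPG. Cd68, a lysosomal protein of macrophages, rose by 1.39, 1.42 and 1.33 on the log2 scale, with limma's adjusted p of 0.0301, 0.089 and 0.0275. Cd163, a scavenger receptor of resident macrophages, fell by 1.39 in CS + LPS with an adjusted p of 0.162.

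The mean log2 signal of the 12 markers lay between 10.60 and 11.11 on Control arrays and between 11.28 and 11.62 on all exposed arrays, without overlap. Their summed linear signal overlapped. On Control arrays the sum was 240380 to 369340. In CS + LPS it was 243700 to 296710, with NaHS 256250 to 278010 and with PPG 244610 to 299480. The brightest marker, Lyz2, weighed most in this sum. Lyz2 read 17.28, 17.33 and 18.24 in Control and 17.02 to 17.48 in the exposed samples. The mean correlated with the mean of the 3 C1q genes at a Pearson r of 0.93 over 12 arrays and 0.78 over the 11 without Control 3, and at 0.88 after the group means were removed. For Cd68 alone r was 0.76, 0.44 without Control 3 and 0.43 after the group means were removed. Of 10357 named genes, the 3 with the highest r with the C1q mean, Ndufb11, Lamtor3 and Rangrf, are not in the marker list. Their r was 0.96, 0.94 and 0.94, and 0.86, 0.82 and 0.82 without Control 3. The points of each correlation share the normalization of their array. More macrophages and more C1q RNA per macrophage cannot be told apart in whole lung, and the part of the markers in the C1q values was not tested.

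**Figure D2:**
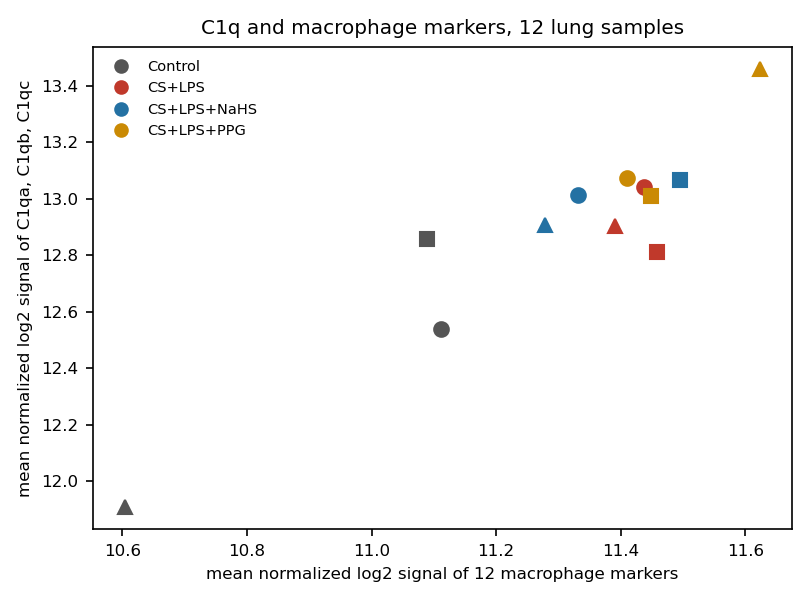
Mean normalized log2 signal of C1qa, C1qb and C1qc against that of 12 macrophage markers in each of 12 lung samples, coloured by group, with circles, squares and triangles for replicates 1, 2 and 3. Control 3 is lowest on both axes, at 11.91 and 10.60, and CS + LPS + PPG replicate 3 is highest on both, at 13.46 and 11.62.

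C3, the protein on which the pathways converge, showed no DE difference. It read 14.18, 14.22 and 14.54 in Control, 14.82, 13.98 and 14.36 in CS + LPS, 13.89, 14.61 and 13.89 with NaHS and 14.33, 13.64 and 14.30 with PPG. The groups overlapped, and the spread within each exposed group (SD 0.39 to 0.42) was wider than within Control (SD 0.19). The log2 fold changes against Control were 0.07 (95% interval -0.53 to 0.68), -0.18 (-0.79 to 0.43) and -0.22 (-0.83 to 0.39). In this fit, without a block, the intervals leave out a 2-fold change in either direction. With slide as a block the CS + LPS value was -0.15 with an SE of 0.39, against 0.28 without it, so its interval is wider.

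Cfb, factor B of the alternative pathway, had the tightest values. It read 16.08, 15.996 and 16.24 in Control, 15.76, 16.04 and 15.68 in CS + LPS, 15.92, 16.11 and 15.87 with NaHS and 16.12, 15.96 and 16.06 with PPG, with overlap throughout. The differences from Control were -0.28 (95% interval -0.58 to 0.02), -0.14 (-0.44 to 0.16) and -0.06 (-0.36 to 0.24). Against CS + LPS, Cfb differed by 0.14 with NaHS and 0.22 with PPG, and limma's adjusted p was 0.872 and 0.629.

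C6, which joins C5b to begin the membrane attack complex, rose in CS + LPS. It read 8.40, 9.39 and 8.71 in Control and 11.98, 11.49 and 10.20 in CS + LPS, and the groups did not overlap. The difference was 2.39 on the log2 scale (SE 0.60, 5.24-fold, 95% interval 1.07 to 3.71), with an unadjusted p of 0.00216 and limma's adjusted p of 0.0658. C6 was the 1 DE member of 8 in this comparison, where 4.56% of all probes were DE.

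The rise of C6 kept its DE call in all 26 alternative settings, with values from 2.01 to 2.90. With slide as a block it was 2.52 (SE 0.88) and within slide 2 it was also 2.52, with Control 3 as the only Control sample there. Hepatocyte markers were not DE beside it. Alb, Apoa1, Fgb, Ahsg, Apoh and Tat, defining transcripts of liver, did not pass the detection filter, and none of the other 4 of the 10 markers was DE in any of the 3 comparisons with Control. The 4 detected mesothelium markers differed from Control by -0.61 to -0.35 in CS + LPS, with none DE, and Wt1 among them fell by 1.03 with NaHS.

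With NaHS, C6 read 10.95, 11.30 and 9.15, so replicate 3 fell among the Control values while the other 2 lay with CS + LPS. The difference from Control was 1.64 (SE 0.60, 3.11-fold), DE with limma's adjusted p of 0.225, and C6 was the 1 DE member of 8 beside 2.67% of all probes. The DE call was lost without Control 1 (1.42), NaHS 1 (1.39) or NaHS 2 (1.22), and in the methods' t-test. Against CS + LPS the difference was -0.75 (95% interval -2.07 to 0.56), which was not DE.

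With PPG, C6 read 9.21, 9.61 and 10.43, 1 sample within the Control range and 2 above it. The difference from Control of 0.92 (95% interval -0.40 to 2.24) was not DE. Against CS + LPS, C6 fell by 1.47 on the log2 scale (SE 0.60), DE with limma's adjusted p of 0.42, and the groups overlapped by PPG 3 and CS + LPS 3. This call was lost without CS + LPS 1 (-1.09), CS + LPS 2 (-1.34), PPG 1 (-1.20) or PPG 2 (-1.40), in the methods' t-test, and with slide as a block (-1.66, SE 1.12). CS + LPS and PPG arrays share no slide, so no value within a slide exists. NaHS and PPG differed by 0.72 (95% interval -0.60 to 2.04), without a DE call, and by 1.38 with a DE call when NaHS 3 was left out.

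C9, which polymerizes into the pore, followed another order. It read 5.90, 5.91 and 7.25 in Control, 6.54, 6.18 and 5.45 in CS + LPS, 7.03, 6.81 and 6.81 with NaHS and 7.42, 7.14 and 7.69 with PPG. Control 3 stood above the other Control samples, and CS + LPS lay below both treated groups without overlap. The order of the group means was CS + LPS (6.06), Control (6.35), NaHS (6.88) and PPG (7.42), of which CS + LPS and Control overlapped and so did Control and both treated groups.

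Against Control, C9 differed by -0.29 in CS + LPS and 0.53 with NaHS, neither DE, and rose by 1.07 with PPG (SE 0.37, 2.09-fold, limma's adjusted p 0.0958). It was the 1 DE member of 8 there, where 4.38% of probes were DE. The PPG call was lost without Control 1 (0.84), Control 2 (0.84) or PPG 3 (0.93) and in the methods' t-test, while without Control 3 the value was 1.51. Without Control 3 the CS + LPS value was 0.15. In the fit with the slide block, C9 in CS + LPS was -1.19 (SE 0.35, limma's adjusted p 0.0218), DE, and within slide 2, with Control 3 as the only Control sample, also -1.19. Within slide 1 the PPG difference was 1.51 (limma's adjusted p 0.0188) and the NaHS difference 0.98, the latter under 2-fold.

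Against CS + LPS, C9 was 0.82 higher with NaHS (SE 0.37, unadjusted p 0.0459, 1.77-fold, not DE) and rose by 1.36 with PPG (2.57-fold, limma's adjusted p 0.18). A block for slide gave 2.17 and 2.71, both DE, read through Control because the groups share no slide. C6 and C9 were the 2 DE members of 8 between PPG and CS + LPS and the 2 at an unadjusted p under 0.05, where 2.05% of probes were DE and 10.5% under that p, with C9 higher beside 1.78% and C6 lower beside 0.268%. Between NaHS and CS + LPS 0 of 8 members were DE in limma, against 1.70% of probes, with 1 at an unadjusted p under 0.05, C9, beside 9.67% of probes, and 0 DE in the methods' t-test. Between NaHS and PPG, C9 differed by -0.54 with no overlap, 0 members were DE against 0.523% of probes, 0 had an unadjusted p under 0.05 in limma, beside 8.74% of probes, and 1, C9, in the methods' t-test.

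C9 is a dim probe and moved more than the other members with the background correction. With normexp background correction the PPG difference was 0.41 from Control and 0.85 from CS + LPS, neither DE. Marker lists of other cell types were uneven beside C9. Of 10 hepatocyte markers, Alb (7.79), Ahsg (7.28) and Apoa1 (6.87) were highest on Control 3 but did not pass the detection filter, F2 (7.70) was also highest there, and Cyp2e1 (10.05) and Serpina1 (9.07) were lowest there, while Ttr was highest on NaHS 3 and Tat on Control 2. The mean of 5 airway epithelium markers was 15.37 on Control 3, 14.37 to 14.80 with PPG and 12.94 to 14.01 on the other 8 arrays, and that of 5 fat markers 10.996, 9.93 to 10.74 and 8.27 to 9.24. With PPG 1 of the 5 airway markers was above Control, Bpifa1, a secreted airway protein that rose by 6.45 on the log2 scale, and the other 4 differed by -0.81 to -0.51, none DE. Of the 5 fat markers 4 were above Control with PPG, and Cfd was the DE one. The part of liver, airway and fat transcripts in C9 was not tested.

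**Figure D3:**
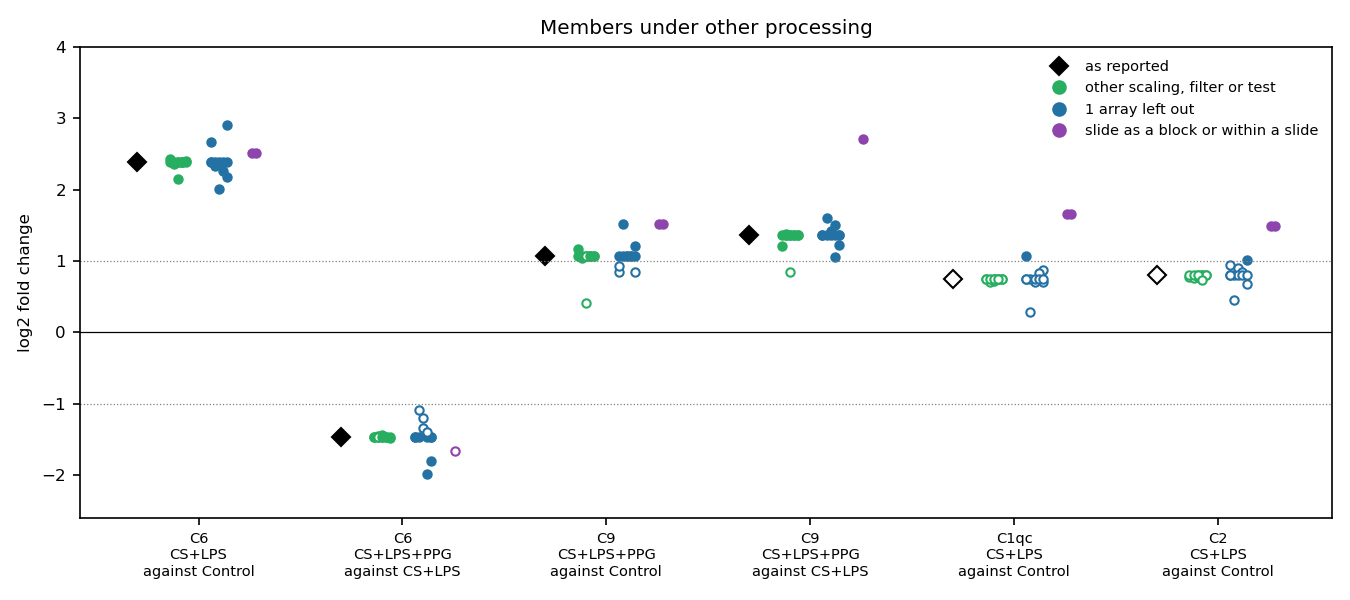
Log2 fold changes of C6, C9, C1qc and C2 in the comparisons named on the horizontal axis, as reported (diamonds) and under other processing (circles); filled marks were DE and dotted lines mark 2-fold. C6 in CS + LPS stays filled at 2.01 to 2.90. C1qc and C2 read 1.66 and 1.49 with slide taken into account, where Control 3 is the only Control sample on the CS + LPS slide. Without Control 3, C1qc and C2 in CS + LPS were 0.29 and 0.46.

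Early and terminal components were then set side by side, as a description. The median log2 fold change of the 5 early members was 0.23 in CS + LPS, 0.31 with NaHS and 0.52 with PPG against Control, where that of all probes was -0.04, 0.00 and -0.01. C6 and C9 gave 2.39 and -0.29, 1.64 and 0.53, and 0.92 and 1.07. Over the 12 arrays C6 and C9 correlated at a Pearson r of -0.02. The choice of members fixes these groups, and the 3 comparisons share the Control samples.

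In the fit without a block, none of the 5 early members was DE in limma, beside 4.56%, 2.67% and 4.38% of all probes against Control. At an unadjusted p under 0.05 they counted 2 of 5 in CS + LPS, 2 with NaHS and 3 with PPG, all C1q genes, beside 25.2%, 17.1% and 29.3% of all probes at that limit, and in the methods' t-test 0, 1 and 1. Without a block, the largest early difference between a treated group and CS + LPS was 0.32, for C1qa with PPG. With slide as a block, C1qc was DE in CS + LPS against Control (1.66) and against CS + LPS with NaHS (-1.34) and PPG (-1.20). These values rest on Control 3, the only Control sample on the CS + LPS slide. In the counts of overlap that follow, C2 was read by its brighter probe. Of all 8 members, 3 did not overlap with Control in CS + LPS, 3 with NaHS and 3 with PPG, where 25.2%, 24.8% and 33.2% of all probes did not. Against CS + LPS the counts were 2 with NaHS and 2 with PPG, beside 20.5% and 19.1%, and between NaHS and PPG 1, beside 25.2%.

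**Figure D4:**
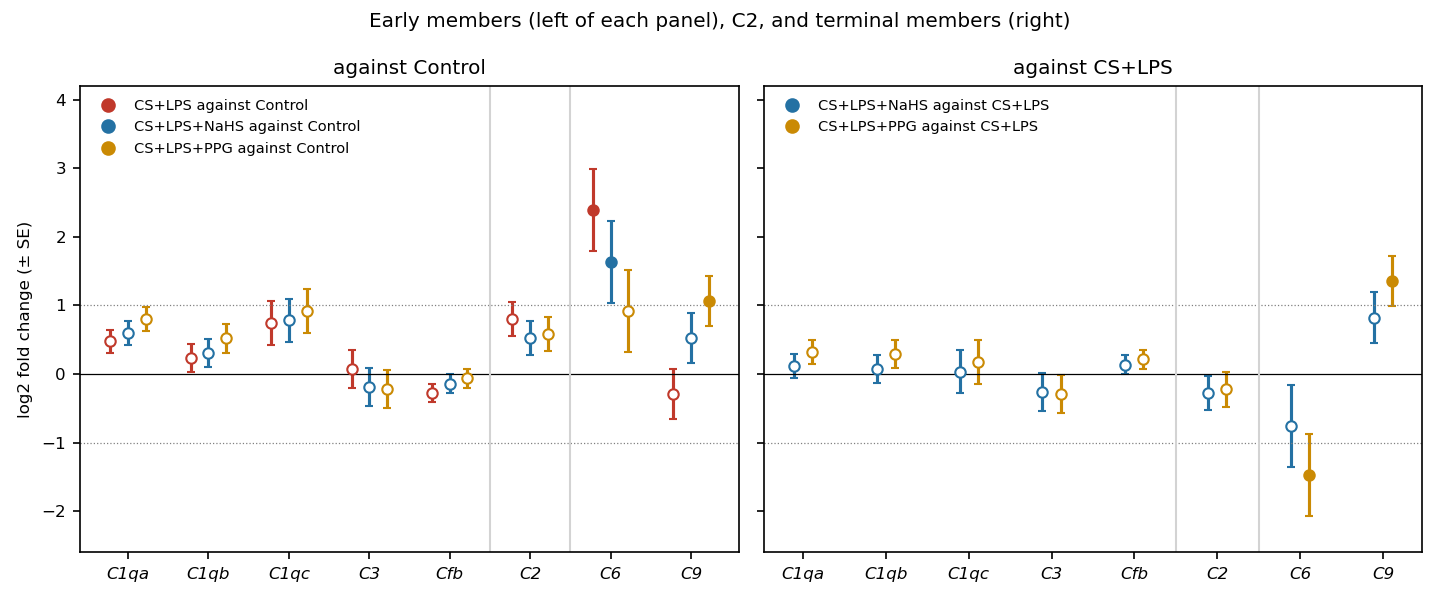
Log2 fold change ± SE (limma) of each member against Control (left panel) and against CS + LPS (right panel); filled points were DE, open points were not, dotted lines mark 2-fold, and vertical lines set apart the early members, C2 and the terminal members. The filled points are those of C6 and C9, from 2.39 to -1.47.

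The other complement genes were read from a list of 51, of which 40 had a probe and 34 passed the detection filter. In CS + LPS, 5 were DE higher and 2 lower than Control, where 1.65% and 2.91% of all probes were. With NaHS, 4 were higher and 1 lower, where 1.30% and 1.37% were, and with PPG 6 were higher and 1 lower, where 2.32% and 2.06% were. The median log2 fold change of the 34 was 0.19, 0.28 and 0.24.

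Among initiators, the ficolins rose in all 3 exposed groups. Fcnb, a ficolin of granulocytes that binds microbial sugars, read 8.52, 10.08 and 8.29 in Control and 10.61 to 13.02 in the 9 exposed samples, with no overlap. It rose by 2.78, 2.74 and 2.61 on the log2 scale (SE 0.60), with limma's adjusted p of 0.0452, 0.121 and 0.0424. Fcna, a ficolin of macrophages and plasma, rose by 1.10, 1.14 and 1.46 with adjusted p of 0.0766, 0.141 and 0.032, with 0.69 in CS + LPS and 0.72 with NaHS without Control 3, and 0.94 in CS + LPS without CS + LPS 2, all under 2-fold.

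Fcnb also belongs to the neutrophil markers, of which 2 of 10 detected were DE higher in CS + LPS, 4 with NaHS and 5 with PPG, and 0 were lower. Of all probes, 1.65%, 1.30% and 2.32% were DE higher and 2.91%, 1.37% and 2.06% lower. The summed signal of the neutrophil list ran from 13528 to 24084 in Control and from 27443 to 59144 in the exposed samples. The part of neutrophil number in Fcnb was not tested. Mbl1, a mannose-binding lectin, read 8.10 on PPG 3 and at most 6.73 on the other arrays, and was not DE.

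Of the alternative pathway, Cfp (properdin), which stabilizes the convertase, rose in all 3 exposed groups by 1.19, 1.01 and 1.11 (SE 0.20), with limma's adjusted p of 0.0248, 0.11 and 0.0248. Without Control 3 the NaHS and PPG values were 0.83 and 0.93, and without NaHS 1 the NaHS value was 0.91, under 2-fold. Cfd (factor D, adipsin) read 11.67, 11.72 and 12.63 in Control and 13.19, 12.90 and 13.26 with PPG, and rose there by 1.11 with limma's adjusted p of 0.0501. The value was 0.94 without Control 1 and 0.97 without Control 2, under 2-fold. Cfd is made by fat cells and belongs to the fat list, in which Adipoq read 10.64, 7.91 and 10.01 with PPG, 11.61 on Control 3 and at most 7.12 on the other arrays, and the part of fat tissue in Cfd was not tested.

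Of the fluid-phase regulators, the 2 chains of C4b-binding protein, a brake on the classical convertase, went opposite ways. C4bpa rose by 1.05 in CS + LPS (SE 0.21, limma's adjusted p 0.0392), with 0.84 and 0.73 in the treated groups, not DE, and the CS + LPS value was 0.82 without Control 3 and 0.96 without CS + LPS 1. C4bpb fell in all 3 exposed groups by 1.09, 1.75 and 1.46, with adjusted p of 0.163, 0.141 and 0.075, and without Control 3, where it read 9.98 against 8.22 and 8.04 in the other Control samples, the values were -0.48 in CS + LPS and -0.84 with PPG, under 2-fold. The CS + LPS call was also lost without CS + LPS 2 (-0.99) or CS + LPS 3 (-0.87).

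Cfi (factor I), the protease that cleaves C3b and C4b, read 10.98, 10.07 and 10.71 in Control and 11.96, 11.47 and 11.99 with PPG. It rose there by 1.22 (SE 0.31, limma's adjusted p 0.0493), and the value was 0.96, under 2-fold, without Control 2. With NaHS it was 0.94 higher than Control, under 2-fold. Cpn2, the large subunit of carboxypeptidase N, which trims anaphylatoxins, was near background. It was DE lower in CS + LPS by 1.54 and higher with NaHS and PPG than in CS + LPS by 1.57 and 1.73, but was well above background on 1 of 3 arrays in Control and in CS + LPS, 2 with NaHS and 3 with PPG. The CS + LPS call was lost without Control 2 (-0.79), CS + LPS 2 (-1.53) or CS + LPS 3 (-1.13), and without CS + LPS 3 the values for NaHS (1.16) and PPG (1.32) against CS + LPS were not DE, nor was that for NaHS without NaHS 2 (1.41).

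Of the receptors, C3ar1, the receptor of the anaphylatoxin C3a, rose with PPG by 1.31 (SE 0.39, limma's adjusted p 0.0724), from 5.85, 6.27 and 4.53 in Control to 6.88, 6.80 and 6.90. Without Control 3 the value was 0.80. Itgb2, the beta chain of the leukocyte complement receptors, rose in CS + LPS by 1.02 (adjusted p 0.108) and Cr2, the C3d receptor of B cells, with NaHS by 1.12 (adjusted p 0.221). Without Control 3 these were 0.61 and 0.79, not DE. Itgb2 was also not DE without CS + LPS 3 (0.96), nor Cr2 without Control 1 (0.94) or NaHS 3 (1.02).

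Vsig4, a macrophage receptor for C3b, read 10.26 on CS + LPS 1 and at most 6.80 on every other array, and was not DE in any comparison. None of the 5 detected membrane regulators was DE. Cd55, which dissociates convertases, was 0.55 higher with NaHS and 0.62 higher with PPG than in CS + LPS. Limma's adjusted p was 0.157 and 0.129, and its brighter probe did not overlap, nor did 20.5% and 19.1% of all probes. The other Cd55 probe gave 0.42 and 0.46, and CS + LPS shares no slide with the treated groups. Susd4, a membrane protein that restrains the convertase, differed by 1.11 between NaHS and Control, without a DE call. It read 5.67, 3.20 and 5.77 in Control, where 2 of 3 arrays were well above background, and its other probe gave 0.75. Between NaHS and PPG 0 of the 34 were DE in limma, with 3 at an unadjusted p under 0.05, a share close to the 8.74% of all probes.

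**Figure D5:**
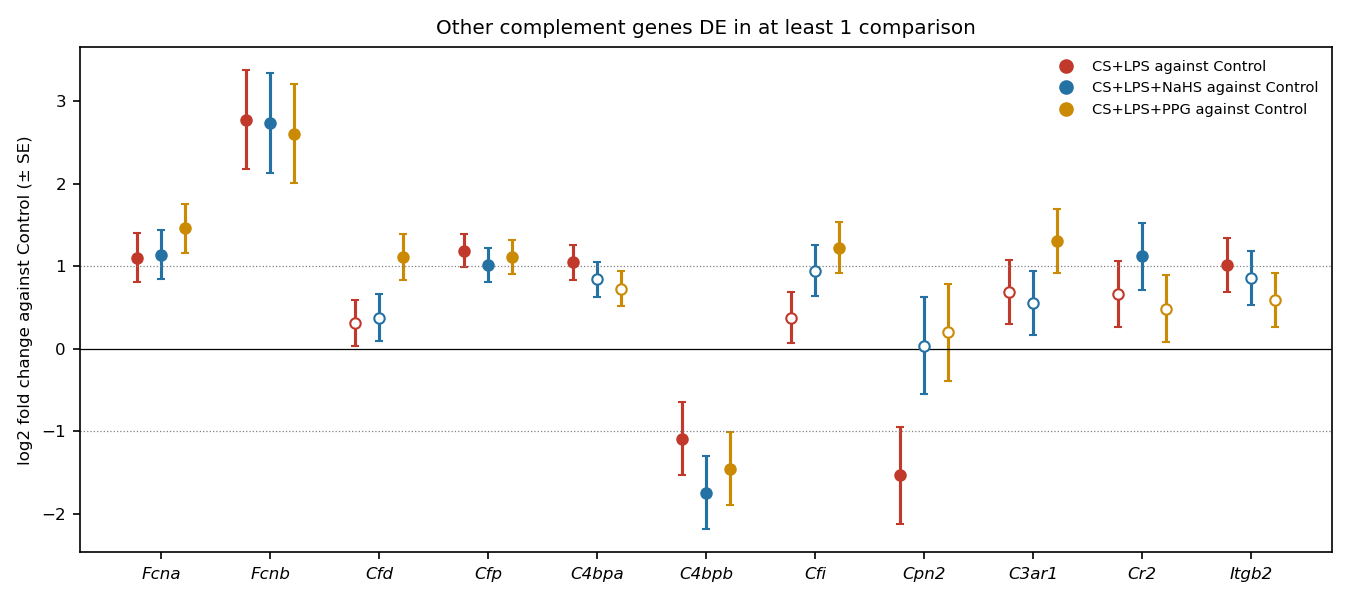
Log2 fold change against Control ± SE (limma, n = 3 per group) of the 11 other complement genes DE in at least 1 comparison, ordered by role from ficolins to receptors; filled points were DE and dotted lines mark 2-fold. Fcnb is highest, at 2.61 to 2.78, and C4bpb and the dim Cpn2 are the 2 with filled points below 0.

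The genes whose pattern over the 12 arrays was most like that of a member were sought among 10357 named genes, as a description. For the C1q mean they were Ndufb11, Lamtor3 and Rangrf, with a Pearson r of 0.96, 0.94 and 0.94, which fell to 0.86, 0.82 and 0.82 without Control 3. For C6 they were Dennd10 (0.86), Mcpt9 (0.82) and Mcpt10 (0.82), the latter both mast cell proteases. For C9 they were Pus7, Agr2 and Polr1f (0.89 to 0.87), for C3 Foxc2, Actg2 and Uso1 (0.87 to 0.83), and for Cfb Kif15, L1cam and Hrk (0.91 to 0.89).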

How the data were processed

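The authors deposited 1 Agilent Feature Extraction 10.7.3.1 file per array, whose processed signal is a linear intensity from which the scanner software had taken the background. The lists of DE probes that the authors deposited hold log2 signals, unsigned fold changes and p-values, which were not used, with 60 columns of signals left out. From these deposited lists other columns gave symbols and positions. After outlier spots were dropped, log2 signals were averaged over the spots of each probe and centred on the array's 75th percentile, at the mean percentile of all arrays. The fit held the 21239 of 30367 probes that were well above background throughout some group (all 3 arrays). Symbols came from RefSeq accessions in a table of GRCr8 (17514 probes) or the lists (194), and 12659 probes stayed unnamed. The brightest probe stood for a gene.

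limma 3.58.1 in R 4.3.3 was fitted to all 12 arrays, tested on simulated data, and 6 comparisons were read from it. The number of arrays limits the precision, and no spot was saturated (0 spots). Processed signals of 3 arrays, Control 1, Control 2 and NaHS 1, were rounded to 3 digits. The members and lists were chosen with earlier results of these data known. Named were all members, the other complement genes that were DE or had the 2 largest differences of a comparison, and the 3 genes most correlated with each pattern. C9 took the place of C7, which has no probe. Alternatives were other scalings, background correction, filters and tests, slide or replicate number as a block, and leaving out each array.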

Additional observations from a re-analysis of the deposited data

Results flagged for a closer look

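Cd93 and Vtn were picked out because every NaHS sample lay on one side of a reference mean and every PPG sample on the other, and that pattern was not tested. Each reference mean rests on 3 samples, and between NaHS and PPG 25.2% of all probes did not overlap. Cd93, a receptor once proposed for C1q, averaged 0.18 above Control with NaHS and -0.38 from it with PPG on the log2 scale, and relative to CS + LPS 0.10 with NaHS and -0.46 with PPG, a gap of 0.56 between the 2 treatments. For Vtn (vitronectin), an inhibitor of the terminal complex, the means were 0.14 from Control with NaHS and -0.37 with PPG, a gap of 0.51. All Vtn values with NaHS and PPG (11.48 to 12.25) lay within the Control range of 11.33 to 12.47. Neither gene was DE between NaHS and PPG, with limma's adjusted p of 0.563 for Cd93 and 0.617 for Vtn.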

How the results depend on the processing

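Members DE numbered 1, 1, 1, 0, 2 and 0 in CS + LPS, NaHS and PPG against Control, NaHS and PPG against CS + LPS, and NaHS against PPG. Normexp gave 0 for PPG against Control and 1 for PPG against CS + LPS, and the methods' t-test gave 0, 0 and 1 for NaHS and PPG against Control and PPG against CS + LPS. With slide as a block the members numbered 4 in CS + LPS (also 4 within slide 2) and 3 for NaHS against CS + LPS. Leaving out 1 array in turn gave ranges of 1 to 2, 0 to 2, 0 to 1, 0 to 1, 1 to 2 and 0 to 1 members, and of 3 to 8, 4 to 6, 4 to 8, 0 to 2, 1 to 3 and 0 to 1 other complement genes, which numbered 7, 5, 7, 1, 1 and 0. The other genes numbered 0 for NaHS against CS + LPS with quantile normalization. With slide as a block they were 4 between PPG and Control, 9 between NaHS and CS + LPS, and 8 between PPG and CS + LPS.

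Signs turned for differences that were small or tied to slide. With slide as a block these were, for NaHS against CS + LPS, C1qa (-0.40), C1qb (-0.40), C1qc (-1.34), C3 (0.0787) and Cpn2 (-0.23), for PPG against CS + LPS C1qa (-0.19), C1qb (-0.19), C1qc (-1.20), C3 (0.04) and Cpn2 (-0.0703), and against Control C3 in CS + LPS (-0.15, also within slide 2) and Cfb with PPG (0.006, also within slide 1). CS + LPS and the treated groups share no slide, so this block reads their difference through Control, with Control 3 alone on slide 2. Quantile normalization turned Cfb between NaHS and PPG to 0.15. Leaving out 1 array gave ranges of -0.54 to 0.15 for C9 and -0.14 to 0.28 for C3 in CS + LPS, -0.12 to 0.006 for Cfb and -0.34 to 0.0042 for C3 with PPG, -0.002 to 0.17 for C1qb and -0.0448 to 0.0785 for C1qc between NaHS and CS + LPS, and -0.20 to 0.16 for C3 between NaHS and PPG. The causes were not tested.

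Same-numbered samples of different groups did not deviate together, with 2 of 18 correlations over 0.1 (range -0.31 to 0.14), so the numbers were not taken as pairs. The replicate block raised the adjusted p of C1qa with PPG from 0.037 to 0.0745, left the counts of members at 1, 1, 1, 0, 2 and 0, and gave 966 DE probes in CS + LPS against 969. Over all probes and the 6 comparisons, DE calls numbered 969, 567, 930, 361, 435 and 111, with normexp 444, 254, 384, 96, 122 and 59, with slide as a block 4831, 412, 660, 4224, 4120 and 134, and with the methods' t-test 443, 279, 498, 292, 309 and 66. Normexp moved the median of all probes to -0.14 in CS + LPS and -0.10 with NaHS against Control. Rounding all signals to 3 digits, an alternative chosen after seeing the data, left every member on its side of the limits. C9 is dim, and its values rest on signal close to background more than those of the other members.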
